A study of Mus musculus with 24 samples.

Results

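The COPII coat builds the vesicles that carry newly made proteins out of the endoplasmic reticulum (ER). The small GTPase Sar1 enters the ER membrane in its GTP-bound form and recruits the Sec23-Sec24 heterodimer as the inner coat, in which Sec23 stimulates GTP hydrolysis by Sar1 and Sec24 binds the cargo. Sec13 and Sec31 then assemble around it as the outer cage. In mammals several subunits exist as paralogues, and those of Sec24 differ in the cargo signals they recognise. Adipocytes use this route for secreted proteins such as adiponectin and for the membrane proteins of the cell surface.

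The 10 COPII coat genes described here, out of 52089 gene symbols in the deposited table, were the GTPases Sar1a and Sar1b, the inner coat genes Sec23a, Sec23b, Sec24a, Sec24b, Sec24c and Sec24d, and the outer coat genes Sec31a and Sec13. They were taken by symbol. The table lists 89 entries under these symbols among 168326 in all, and each gene was represented by its NM_ entry, chosen by the highest mean RPKM over the 24 libraries. Entries of a gene overlap, so calls on several of them are not separate observations. The genes themselves were proposed from their changes between KD and NC in these data, so levels, counts and fold changes of the members are given as a description of them, beside the fit across all entries.

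The libraries came from primary preadipocytes of the stromal vascular fraction of inguinal white fat of 129SvEv mice (129S6sv/ev in the study's methods), which were induced and then differentiated with rosiglitazone into brite cells, white fat cells that take on features of brown fat. After the first day of differentiation all 4 groups were transfected with 50 nM of an LNA gapmer, a short antisense strand through which RNase H cuts the RNA it pairs with. The groups were KD 24 h and KD 72 h, with the gapmer against the long noncoding RNA Ctcflos, and NC 24 h and NC 72 h, with a nontargeting gapmer, harvested 24 h or 72 h after transfection. Each group held 6 libraries. The study calls its transcriptome replicates biological, but neither it nor the labels tie a library to an animal or culture, so that p-values measure the spread between these libraries. The labels do not name the gapmer. The study's text centres its transcriptome comparisons at both times on a gapmer against transcript tr1 of Ctcflos, and its design also lists one against tr3 and tr4. All KD libraries share a single label, so effects of an oligonucleotide and of its target cannot be told apart.

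The libraries held 1391832 to 5926375 mapped reads (median 4009998), as recovered from the RPKM steps. In NC 72 h replicate 6, which had the highest total, odd values made up 14.9% of the low recovered read numbers (at most 20), while their share elsewhere was 54.0% to 55.7%, so that its reads were mostly counted in pairs and its total may be overstated. Without it Sec24d changed by -0.76 (adjusted p 0.0071) and Sar1a by 0.39 (adjusted p 0.011) at 72 h, and the same 2 members were called. NC 72 h replicates 2 and 3 differed by less than the sampling noise and were counted as 1 sample, which left n = 5 in that group and 23 samples. The Ctcflos entry with the highest mean (AK079954, which the study assigns to tr3) had a median of 0.11 RPKM in KD 24 h (0 to 0.83) against 1.46 in NC 24 h (0.67 to 2.87), and of 0.27 in KD 72 h (0 to 0.98) against 2.45 in NC 72 h (1.16 to 3.86). The entry of tr1 (AK041254) had medians of 0.09 (0 to 1.03) against 0.42 (0.17 to 0.85) at 24 h and of 0 (0 to 0.53) against 1.22 (0 to 2.48) at 72 h, with overlapping groups. Both were too low for the test. Grouped by how they departed from the mean of their own group, the libraries parted into 16 and 8, called the larger and the smaller cluster below. Each group has 2 libraries in the smaller cluster. For part of the changes, values within each cluster are given beside the main ones. KD 24 h replicate 6, the library with the fewest reads, had the lowest level of its group in Sec13, Sec23a, Sec24a and Sar1b. Summed levels of the 6 adipocyte markers ranged from 28206 to 54541 RPKM over all libraries, against 0.19 to 3.31 for 6 endothelial and 2.74 to 28.1 for 6 macrophage markers. Summed levels of 7 mesothelial and epithelial markers, most of it Krt19, were 18 to 25.4 RPKM in NC 24 h, 23 to 76.0 in KD 24 h, 19.0 to 38.3 in NC 72 h and 120 to 173 in KD 72 h. Their part in the results below was not tested.

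At 24 h after transfection the knockdown libraries held less mRNA of 4 COPII genes and more of 1. Sec24d, a cargo adaptor of the inner coat, fell to 32.4% of the control level, Sec31a of the outer cage to 50.1%, Sec23a to 57.7% and Sec24a to 67.3%, while the GTPase gene Sar1a rose to 135%. At 72 h Sec24d was still lower, at 58.6% of the control, and Sar1a higher, at 128%, and the other 8 genes did not pass the test. In these bulk samples, fewer cells of a type and less RNA per cell cannot be told apart. A gene was called when limma's moderated test across all entries, adjusted by the Benjamini-Hochberg method, gave an adjusted p under 0.05. RPKM is reads per kilobase of transcript, normalised by the authors to the mapped reads of the library, and it was scaled here within each comparison, and fold changes are on the log2(RPKM + 0.1) scale.

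In all, 5 of the 10 members were called at 24 h, where 22.7% of the 52006 entries tested were called (11.1% higher and 11.6% lower). The median log2 fold change of the members was -0.13 against -0.008 over all entries. The groups did not overlap for 4 members, Sec24d, Sec31a, Sec24a and Sar1a, as was so for 11.1% of all entries (4.73% higher and 6.41% lower). At 72 h, 2 members were called, where 22.3% of 54447 entries were (10.3% higher and 12% lower), and the median was 0.06 against 0.008. The groups did not overlap for 2 members at 72 h, Sec24d and Sar1a, against 13.8% of all entries (6.08% higher and 7.72% lower). The members and the choice of Sec24d as reference were made with earlier results of these data known, so these counts are a description.

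**Figure D1:**
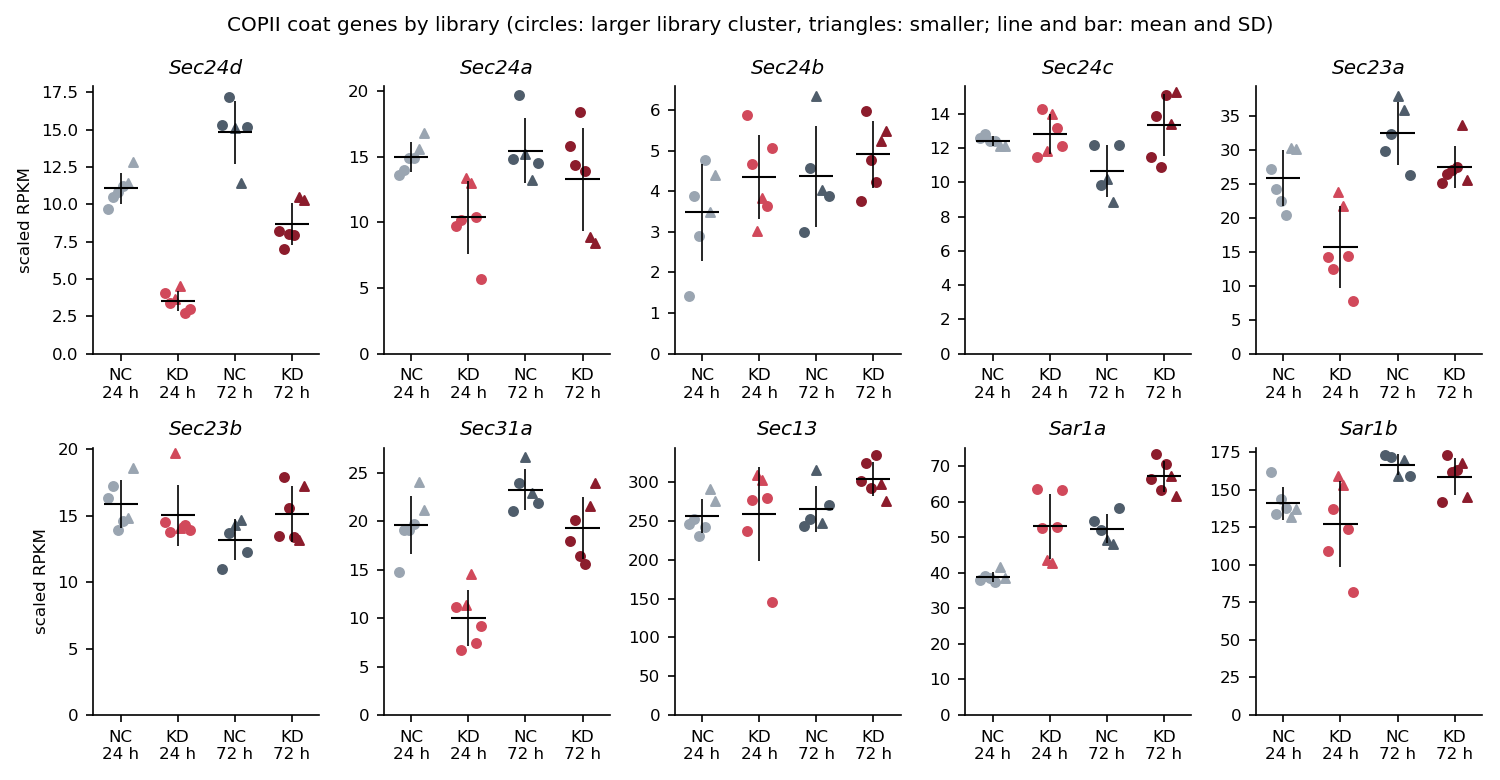
Scaled RPKM (vertical axes, from 0) of each COPII gene in every sample of the 4 groups on the horizontal axes, with the mean as a line and the SD as a bar; the 2 times were scaled separately. Circles are samples of the larger library cluster and triangles of the smaller, and the 6 KD 24 h values of Sec24d, 2.72 to 4.52, all lie below the lowest NC 24 h value of 9.65.

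Sec24d encodes a cargo-binding subunit of the inner coat. Its gene spans 98.2 kb with 23 exons at chr3:123267455-123365641 on the plus strand (GENCODE M21, GRCm38), and no other annotated gene overlaps it. At 24 h its level ran from 2.72 through a median of 3.5 to 4.52 scaled RPKM in KD and from 9.65 through 11.0 to 12.8 in NC, so that all 6 KD libraries lay below all 6 controls. The means were 3.55 ± 0.67 (SD, n = 6) and 11.1 ± 1.07 (SD, n = 6). The log2 fold change was -1.63 ± 0.16 (SE), with an adjusted p of 6.1e-05. It was -1.68 within the larger library cluster and -1.56 within the smaller, and 2 of the 3 entries of the gene were tested and both were called lower.

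At 72 h Sec24d ran from 6.99 through 8.12 to 10.5 scaled RPKM in KD. The 5 NC samples stood at 15.3, 17.2, 15.1, 11.4 and 15.2. The groups again did not overlap, but the highest KD libraries and the lowest control lay close to each other, and all of these belonged to the smaller cluster. The means were 8.66 ± 1.41 (SD, n = 6) and 14.8 ± 2.08 (SD, n = 5), and the log2 fold change was -0.77 ± 0.15 (SE), adjusted p 0.0024. It was -1.02 within the larger cluster and -0.32 within the smaller, where it was not called (adjusted p 0.42) with 2 libraries against 2.

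Sec31a encodes the rod of the outer cage and lies at chr5:100361649-100416234 on the minus strand, over 54.6 kb and 28 exons. At 24 h it ran from 6.68 through 10.1 to 14.5 scaled RPKM in KD and from 14.8 through 19.4 to 24.0 in NC. The groups did not overlap, although the highest KD library came within 1 RPKM of the lowest control. The log2 fold change was -1.0 ± 0.19 (SE), adjusted p 0.0028, and all 5 tested entries of the gene were called lower, by -1.42 to -0.97. Within the larger cluster it was -1.10. Within the smaller it was -0.82, with an adjusted p of 0.052. At 72 h KD ran from 15.6 through 19.1 to 23.9 and the NC samples stood at 21, 23.9, 26.6, 22.9 and 21.9, which overlapped. The change then was -0.28 ± 0.13 (SE), adjusted p 0.14.

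Sec13, the partner of Sec31a in the cage and also a nuclear pore and GATOR complex component, had the highest level per length of the 10 genes, with a mean of 270 RPKM over the libraries. It ran from 146 through 278 to 309 scaled RPKM in KD and from 231 through 250 to 291 in NC at 24 h, a log2 fold change of -0.03 ± 0.16 (SE) with an interval of -0.36 to 0.31. The lowest of these values, 146, was KD 24 h replicate 6, and without it the difference was 0.13. At 72 h the difference was 0.20 ± 0.09 (SE), adjusted p 0.13. It reached 0.29 with an adjusted p of 0.023 within the larger cluster, and 0.26 without NC 72 h replicate 4, where it was also called. The log2 ratio of Sec31a to Sec13 within a sample averaged -4.70 ± 0.53 (SD, n = 6) in KD 24 h, -3.72 ± 0.18 in NC 24 h, -3.99 ± 0.31 in KD 72 h and -3.51 ± 0.09 (SD, n = 5) in NC 72 h, with the lowest values in KD 24 h.

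The Sec23 paralogues encode the GTPase-activating subunit of the inner coat. Sec23a, at chr12:58958383-59012017 on the minus strand, ran from 7.68 through 14.3 to 23.8 scaled RPKM in KD and from 20.4 through 25.7 to 30.3 in NC at 24 h. The groups overlapped through KD replicates 3 and 4, the libraries of the smaller cluster, and the other 4 KD libraries lay below every control. The log2 fold change was -0.79 ± 0.23 (SE), adjusted p 0.024. It was -1.0 within the larger cluster and -0.42 within the smaller, where the adjusted p was 0.14. The call was lost when any of KD 24 h replicate 2 or NC 24 h replicates 5 and 6 was left out, at -0.75 to -0.74. It was also lost without the filter (adjusted p 0.056) and with the replicate number as a block (adjusted p 0.059). At 72 h the change was -0.23 ± 0.12 (SE), adjusted p 0.18, and without scaling it was 0.02.

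Sec23b ran from 13.8 through 14.2 to 19.7 in KD and from 13.9 through 15.6 to 18.6 in NC at 24 h, and its change of -0.08 ± 0.13 (SE) had an interval of -0.37 to 0.20. At 72 h it was 0.19 ± 0.13 (SE), adjusted p 0.32. None of its 12 tested entries was called at either time. The log2 ratio of Sec23a to Sec23b averaged -0.02 ± 0.49 (SD, n = 6) in KD 24 h and 0.69 ± 0.20 in NC 24 h, then 0.87 ± 0.30 in KD 72 h and 1.3 ± 0.14 (SD, n = 5) in NC 72 h. By the chosen entries Sec23a thus had the higher level per length in each NC sample, where the lowest ratio was 0.48. In KD 24 h this did not hold for each library, as the ratios ran from -0.86 to 0.62. The order of mean levels depended on the entry. Over the 24 libraries the highest entry of Sec23b had a mean of 30.46 RPKM, against 25.1 for that of Sec23a.

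**Figure D2:**
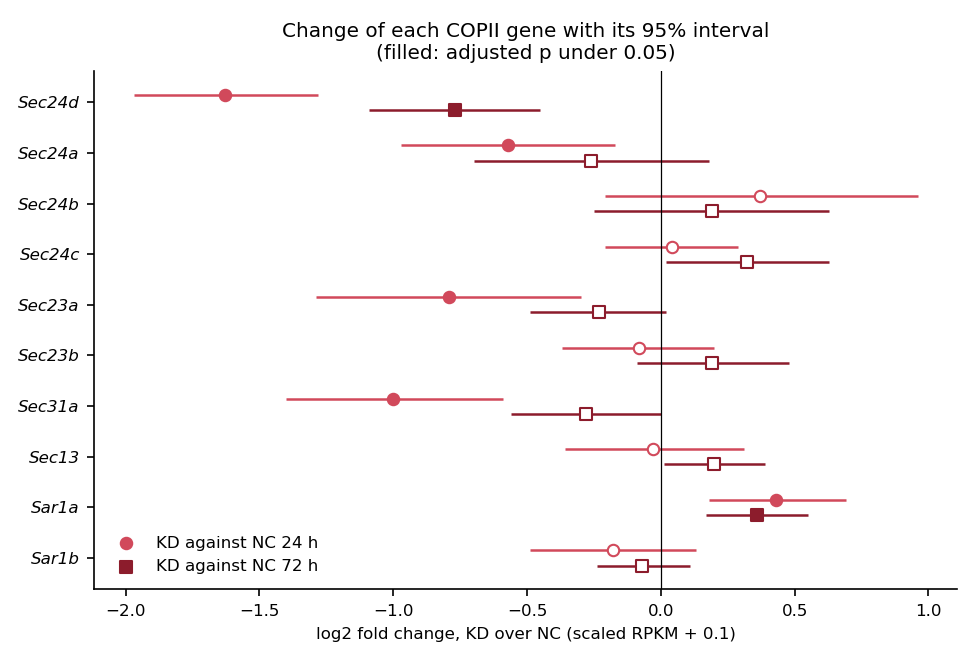
Log2 fold change of KD over NC (horizontal axis) for each COPII gene (vertical axis) at 24 h (circles) and 72 h (squares), with 95% intervals; filled symbols passed an adjusted p under 0.05. Sec24d has the lowest value at both times, -1.63 and -0.77, and Sar1a lies above 0 at both.

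The 4 Sec24 paralogues encode the cargo adaptors and had changes of their own. Sec24a ran from 5.68 through 10.3 to 13.4 scaled RPKM in KD and from 13.6 through 14.9 to 16.8 in NC at 24 h, and the groups met almost without a gap. Its change was -0.57 ± 0.19 (SE), adjusted p 0.039, and the call was lost when 1 of 9 of the 12 libraries was left out, at -0.60 to -0.54. The call was also lost with the entry of the highest mean RPKM (-0.60, adjusted p 0.052). Without the filter the adjusted p was 0.084, and with the replicate number as a block 0.077. Within the larger cluster the change was -0.72, and within the smaller -0.31 (adjusted p 0.33). At 72 h it was -0.26 ± 0.20 (SE), adjusted p 0.39, with -0.06 within the larger cluster and -0.69 within the smaller (adjusted p 0.081).

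By the chosen entries Sec24b had the lowest level of the 10 genes, a mean of 4.32 RPKM and a median of 86 reads per library. Its change was 0.37 ± 0.27 (SE) at 24 h, with an interval of -0.21 to 0.96, and 0.19 ± 0.20 (SE) at 72 h, and it turned to -0.21 at 24 h within the smaller cluster. Sec24c ran from 11.5 through 12.6 to 14.3 scaled RPKM in KD and from 12.1 through 12.4 to 12.8 in NC at 24 h. The NC values fell inside the KD range, and the change was 0.04 ± 0.12 (SE) with an interval of -0.21 to 0.29. At 72 h it was 0.32 ± 0.14 (SE), adjusted p 0.12, with 0.16 within the larger cluster and 0.60 within the smaller, not called in either. Next to Sec24d, the log2 change was higher by 1.06 in Sec24a, 2.00 in Sec24b and 1.66 in Sec24c at 24 h, and by 0.51, 0.96 and 1.10 at 72 h. These differences are given with no test, since Sec24d was made the reference with its fall known.

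Within the summed RPKM of the 4 Sec24 genes, Sec24d made up 26.4% ± 0.83 (SD, n = 6) in NC 24 h and 11.4% ± 1.5 in KD 24 h. In NC 72 h it was 32.6% ± 1.3 (SD, n = 5), and in KD 72 h 21.7% ± 4.3 (SD, n = 6). The ranges at 24 h were 25.5% to 27.8% and 9.10% to 13.1%, far apart. The share of Sec24c was 29.8% ± 2.6 in NC 24 h and 41.3% ± 4.1 in KD 24 h, and that of Sec24a was 35.7% ± 1.2 and 33.0% ± 6.7. By the chosen entries Sec24d was thus near Sec24c in share in the controls at 24 h. In KD 24 h Sec24b made up 14.2% ± 4.2, so that Sec24d had the lowest mean share per length. In KD 24 h replicates 3 and 4, of the smaller cluster, Sec24b lay below Sec24d, at 9.52% against 11.4% and 10.9% against 12.8%. The lowest mean share in KD 72 h was that of Sec24b, 12.2% ± 2.1. These shares depend on the entry. The highest entries had means of 26.2 RPKM for Sec24a, 27.11 for Sec24b, 14.91 for Sec24c and 26.96 for Sec24d. The libraries sequence 3′ ends, so that dividing by transcript length can misstate levels between genes. Counted as reads, Sec24d was 20% ± 0.566 of the Sec24 reads in NC 24 h, 8.63% ± 1.18 in KD 24 h, 25.1% ± 1.14 in NC 72 h and 16.7% ± 4.03 in KD 72 h.

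**Figure D3:**
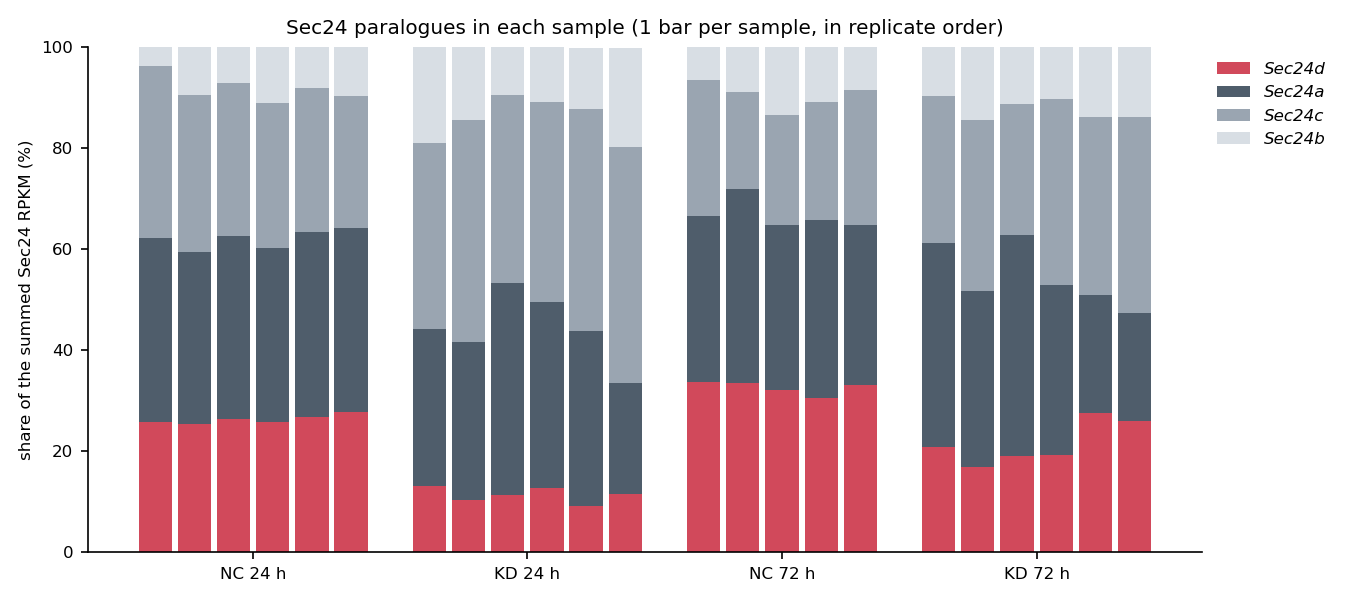
Share of each Sec24 paralogue in the summed Sec24 RPKM (vertical axis, percent), 1 stacked bar per sample in replicate order within the 4 groups. The share of Sec24d, at the foot of each bar, was 25.5% to 27.8% in NC 24 h and 9.10% to 13.1% in KD 24 h.

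The Sar1 GTPases start coat assembly. Sar1a, at chr10:61680299-61693297 on the plus strand, ran from 42.6 through 52.7 to 63.5 scaled RPKM in KD and from 37.4 through 38.5 to 41.6 in NC at 24 h, with every KD library above every control. The log2 fold change was 0.43 ± 0.12 (SE), adjusted p 0.019, and all 5 entries of the gene were called higher. It was 0.58 within the larger cluster and 0.09 within the smaller, where it was not called (adjusted p 0.71). At 72 h KD ran from 61.5 through 66.7 to 73.4 and the NC samples stood at 54.5, 51.9, 49.3, 48.0 and 58.1, again without overlap. The change was 0.36 ± 0.09 (SE), adjusted p 0.011, and 3 of 5 entries were called higher. For the GenBank entry with the highest mean it was 0.18, adjusted p 0.19. For the chosen entry the change was 0.31 within the larger cluster (adjusted p 0.037). Within the smaller it was 0.41 and not called (adjusted p 0.1).

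Sar1b, known for its part in chylomicron secretion, did not pass the test at either time. It changed by -0.18 ± 0.14 (SE) at 24 h, with an interval of -0.49 to 0.13, and by -0.07 ± 0.08 (SE) at 72 h, with an interval of -0.24 to 0.11. By the chosen entries Sar1b had the higher level per length of this pair, with a mean of 148 RPKM against 53.2 for Sar1a. With the highest entry of each gene the means lay close, at 153.32 RPKM for Sar1b and 146.4 for Sar1a. The ratios that follow use the chosen entries. The log2 ratio of Sar1a to Sar1b averaged -1.86 ± 0.14 (SD, n = 6) in NC 24 h and -1.24 ± 0.59 in KD 24 h, and -1.67 ± 0.13 (SD, n = 5) and -1.25 ± 0.09 (SD, n = 6) at 72 h.

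Without any scaling the median log2 change of all entries at 72 h was 0.25, against 0.01 with scaling. Then 16268 of 54447 entries were called, 80.9% of them higher. Of the members 5 were called, with Sec23b at 0.44, Sec24c at 0.57 and Sec13 at 0.45 besides Sar1a and Sec24d. The fall of Sec24d and the rise of Sar1a were called with and without scaling at both times.

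In the control cells alone, from 24 h to 72 h, only Sar1a among the 10 members was called, where 9.12% of 52836 entries were (4.63% higher and 4.49% lower). It rose from 37.8 ± 1.37 (SD, n = 6) to 48.1 ± 3.55 scaled RPKM (SD, n = 5), a log2 change of 0.34 ± 0.08 (SE), adjusted p 0.013, without overlap. With all 4 groups in 1 fit the adjusted p was 0.058. Sec24c was the other member whose groups did not overlap, as in 7.4% of entries (3.57% higher and 3.83% lower), at 11.8 to 12.5 in NC 24 h and 8.12 to 11.2 in NC 72 h, but its change of -0.31 ± 0.12 (SE) had an adjusted p of 0.12. Sec24d stood at 10.8 ± 1.04 in NC 24 h and 13.6 ± 1.89 in NC 72 h, a change of 0.33 ± 0.13 (SE), adjusted p 0.13. It was 0.50 and called within the larger cluster (adjusted p 0.044) and 0.03 within the smaller. This comparison shares its control samples with those of the knockdown.

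The knockdown effect was compared between the times by an interaction term, which asks whether the KD against NC difference at 72 h departs from that at 24 h. None of the 10 members was called by limma, where 0.2% of 59413 entries were (0.126% higher and 0.0741% lower), and 2 had an unadjusted p under 0.05. With voom on recovered reads 0 were called as well. Sec24d had the largest term of the members, 0.87 ± 0.21 (SE), unadjusted p 4.2e-04 and adjusted p 0.096. It was called without scaling (1.05, adjusted p 0.023) and with the library cluster as a block (0.88, adjusted p 0.046). For Sec31a it was 0.73 ± 0.24 (SE), adjusted p 0.20, for Sec23a 0.57 ± 0.28 (SE), adjusted p 0.43, and for Sar1a -0.06 ± 0.14 (SE), adjusted p 0.90.

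The upstream sequence of the 3 genes with the lowest values at 24 h and of Sar1a, which rose, is shown for reading beside these changes. RefSeq's promoter table (GRCm38.p6) matched all 10 members. In the 250 bases before each listed start, 7 motifs of factors that act on secretory genes or of general promoters were searched on both strands: the ER stress element, in which CCAAT and CCACG stand at a fixed distance, its end CCACG, the core TGACGTG of the unfolded protein response element, the cyclic AMP response element TGACGTCA, the CCAAT box, the E-box CACGTG and the GC box GGGCGG. Capitals mark matches in either orientation. Sequences stop where the GENCODE gene begins, and for Sec24d 24 bases that start inside the gene are shown on their own.
Sec24d, chr3:123267246-123267454, plus strand: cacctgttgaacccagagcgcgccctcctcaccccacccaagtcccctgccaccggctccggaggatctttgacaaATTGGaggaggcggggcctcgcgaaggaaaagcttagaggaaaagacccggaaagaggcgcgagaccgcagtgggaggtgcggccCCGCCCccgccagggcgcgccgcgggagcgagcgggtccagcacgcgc
Sec24d, chr3:123267462-123267485, plus strand: cgggcgccTGACGTGGcactagca
Sec31a, chr5:100416235-100416484, minus strand: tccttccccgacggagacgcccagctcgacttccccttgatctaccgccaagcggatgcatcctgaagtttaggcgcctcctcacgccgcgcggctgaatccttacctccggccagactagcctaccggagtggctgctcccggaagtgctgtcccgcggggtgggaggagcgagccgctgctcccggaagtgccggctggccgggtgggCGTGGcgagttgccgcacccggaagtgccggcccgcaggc
Sec23a, chr12:59012018-59012267, minus strand: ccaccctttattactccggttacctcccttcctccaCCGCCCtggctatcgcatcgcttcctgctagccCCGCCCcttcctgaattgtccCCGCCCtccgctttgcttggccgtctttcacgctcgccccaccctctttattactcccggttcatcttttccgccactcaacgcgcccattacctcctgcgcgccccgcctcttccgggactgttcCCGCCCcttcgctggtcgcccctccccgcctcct
Sar1a, chr10:61680035-61680284, plus strand: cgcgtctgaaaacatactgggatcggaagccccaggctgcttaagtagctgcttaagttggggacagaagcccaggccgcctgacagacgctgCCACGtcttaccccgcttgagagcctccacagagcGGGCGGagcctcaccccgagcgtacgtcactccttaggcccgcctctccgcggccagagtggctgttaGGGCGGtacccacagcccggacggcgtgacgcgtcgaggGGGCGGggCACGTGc

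TGACGTG was matched in Sec24d only among the 10 members, 26 bases before the RefSeq start, which is 15 bases after the start in GENCODE, and in 1.61% of 27025 promoters. It overlaps there with a reverse match of CCACG. The letters CCACG were matched in 5 members (Sec24b, Sec24c, Sec24d, Sec31a and Sar1a) and in 28.2% of promoters, and so in genes that fell, rose and did not pass the test. CCAAT was matched in 3 members, Sec23b, Sec24d and Sar1b, against 34.5% of promoters. GGGCGG was matched in 6 members against 32.9%, with 4 matches in Sec23a and 3 in Sar1a. CACGTG was matched in Sar1a, against 6.05% of promoters, and the full ER stress element and TGACGTCA in no member, against 0.122% and 1.62%. A match is a run of letters and says nothing of binding. The RefSeq start listed for Sec24a lies 6800 bases inside its GENCODE gene, so that its window is not upstream of the gene. The window of Sec24b is not either, with all 250 bases inside its GENCODE gene. Those of Sec13, Sec24d and Sec24c reach into the gene by 62, 41 and 13 bases.

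The members differ in the length of their genes, which the rule did not use. The 5 longest, Sec24d at 98.2 kb, Sec24b at 78.8 kb, Sec24a at 71.4 kb, Sec31a at 54.6 kb and Sec23a at 53.6 kb, included the 4 that fell at 24 h, with Sec24b as the exception. Sar1a spans 13.0 kb and Sec13 12.7 kb. Across the 10 members Spearman's rho of span and log2 change was -0.56 at 24 h and -0.81 at 72 h. The genes share the same libraries, and the values are given with no p. Over all 8974 protein-coding genes with a tested entry it was -0.24 at 24 h, and the median log2 change was 0.09 for the 3136 genes under 15 kb and -0.07 for the 1313 genes of 50 to 100 kb. At 72 h it was -0.18 over 9410 genes. The part of gene length in the members' changes was not tested. Sec24a and Sar1b start 52 bases apart on opposite strands, and of this pair Sec24a was called at 24 h and Sar1b was not.

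**Figure D4:**
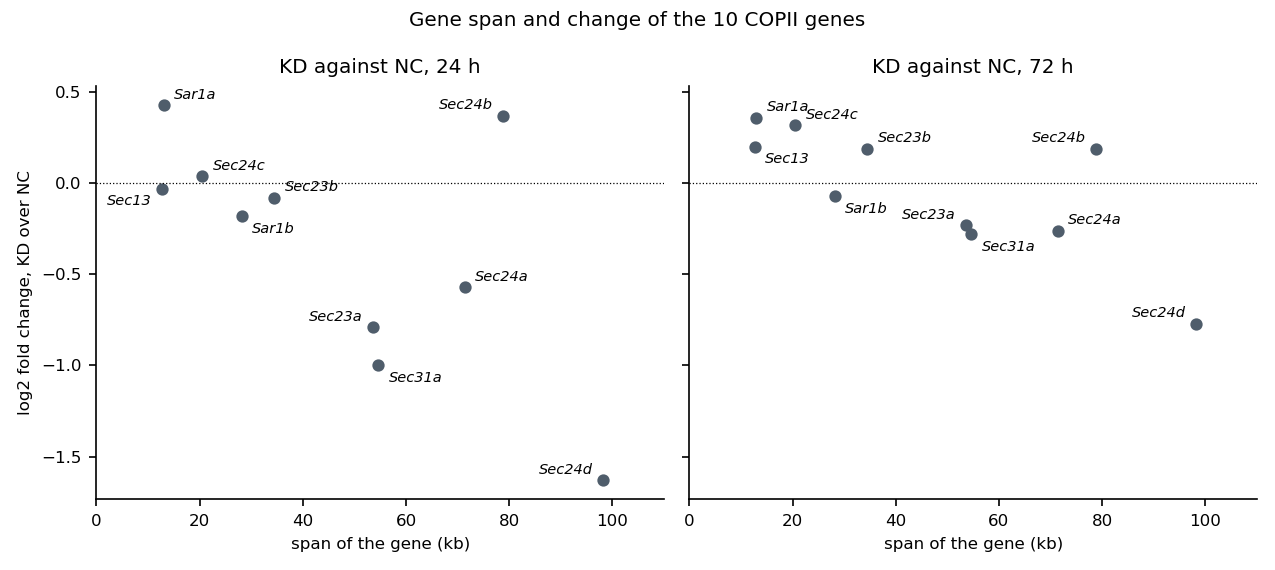
Span of each COPII gene in kb (horizontal axes) against its log2 fold change, KD over NC (vertical axis), at 24 h (left) and 72 h (right). Sec24d, at 98.2 kb, has the lowest value in both panels, and Sec24b, at 78.8 kb, lies above 0 in both.

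Reads of the paralogues can be told apart. Of all stretches of 50 bases in the annotated transcript chosen for each member, none occurred in a transcript of another member. The share found in any other gene was 3.5% for Sec13, 2.9% for Sec24c, 0.5% for Sec23a and 0.0% for the other 7. The handling of strand is not given in the sources used here, and antisense genes overlap Sec23a and Sec24c, so their reads could not be separated there.

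Around the coat, lists of other genes of the early secretory pathway were read the same way, each beside a median near 0 over all entries (-0.008 at 24 h and 0.008 at 72 h). Among the scaffold and regulators of ER exit sites, 1 of 11 tested genes rose and 1 fell at 24 h, with a median of 0.09. The share of all entries called was 11.1% higher and 11.6% lower at 24 h, and 10.3% and 12% at 72 h. Preb, the exchange factor that loads Sar1 with GTP, fell from 29.1 ± 1.86 in NC to 19.6 ± 3.91 in KD (SD, n = 6), a log2 change of -0.59, adjusted p 0.0078. At 72 h it fell from 36.8 ± 2.45 (SD, n = 5) to 18.9 ± 4.24, a change of -0.98, adjusted p 3.2e-04, as the 1 called gene of 11. The groups did not overlap at either time. Csnk1d, a kinase that acts on Sec23 and Sec24, rose by 0.73 at 24 h, adjusted p 0.031, with overlapping groups. Pdcd6, the calcium-binding partner of Sec31, did not pass, at 0.17 (adjusted p 0.30).

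Of 21 cargo receptors, 1 rose and 1 fell at 24 h, and 1 rose and 4 fell at 72 h, with medians of -0.09 and -0.12. At 24 h the share called over all entries was 11.1% higher and 11.6% lower, and at 72 h 10.3% and 12%. Ergic1, of the cycling ERGIC proteins, fell by 0.78 at 24 h, adjusted p 0.004, without overlap. Tmed2, of the p24 family, rose by 0.67, adjusted p 0.036, with an SD of 16.6 in KD against 3.21 in NC. Bcap31, an ER membrane chaperone and the most abundant uncalled receptor at 24 h, changed by -0.48 (adjusted p 0.075). It was among the 4 receptors called lower at 72 h. At 72 h the p24 genes Tmed3 and Tmed5 fell, by 0.55 (adjusted p 4.2e-04) and 0.54 (adjusted p 0.001), both without overlap. Lman1, the ERGIC-53 lectin, rose by 0.51, adjusted p 0.03, and Lman2, the VIP36 lectin, fell by 0.38, adjusted p 0.024. Cnih1, a cornichon receptor, did not pass (-0.18, adjusted p 0.18). Among 21 tethers and SNAREs, limma called none at 24 h, with 2 at an unadjusted p under 0.05. At 72 h Trappc4 rose by 0.40, adjusted p 0.0073, and Trappc1 fell by 0.36, adjusted p 0.035, both subunits of the TRAPP tether. Yif1a, a membrane protein of the early Golgi, did not pass at 24 h (-0.48, adjusted p 0.20) or 72 h (-0.24, adjusted p 0.097).

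The COPI coat carries vesicles in the opposite direction, from the Golgi to the ER. Of its 12 genes 5 fell and none rose at 24 h, with a median of -0.39, where 11.6% of all entries were called lower and 11.1% higher. Copz2, a zeta subunit, fell from 37.5 ± 5.46 to 20.6 ± 4.47 scaled RPKM (SD, n = 6 each), a change of -0.88, adjusted p 0.0017. Copg2 fell by 0.90 (adjusted p 0.023), Copb1 by 0.58 (adjusted p 0.019) and Cope by 0.47 (adjusted p 0.011), and Copb2, named here outside the naming rule, by 0.37 (adjusted p 0.048). At 72 h Copg2 and Copz2 were still lower, by -0.82 (adjusted p 0.0019) and -0.49 (adjusted p 0.0041), while their fellow subunits Copg1 and Copa rose by 0.38 each, adjusted p 0.0082 and 0.03. The most abundant uncalled gene, Arf4, changed by 0.21 (adjusted p 0.12) and 0.09 (adjusted p 0.56).

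**Figure D5:**
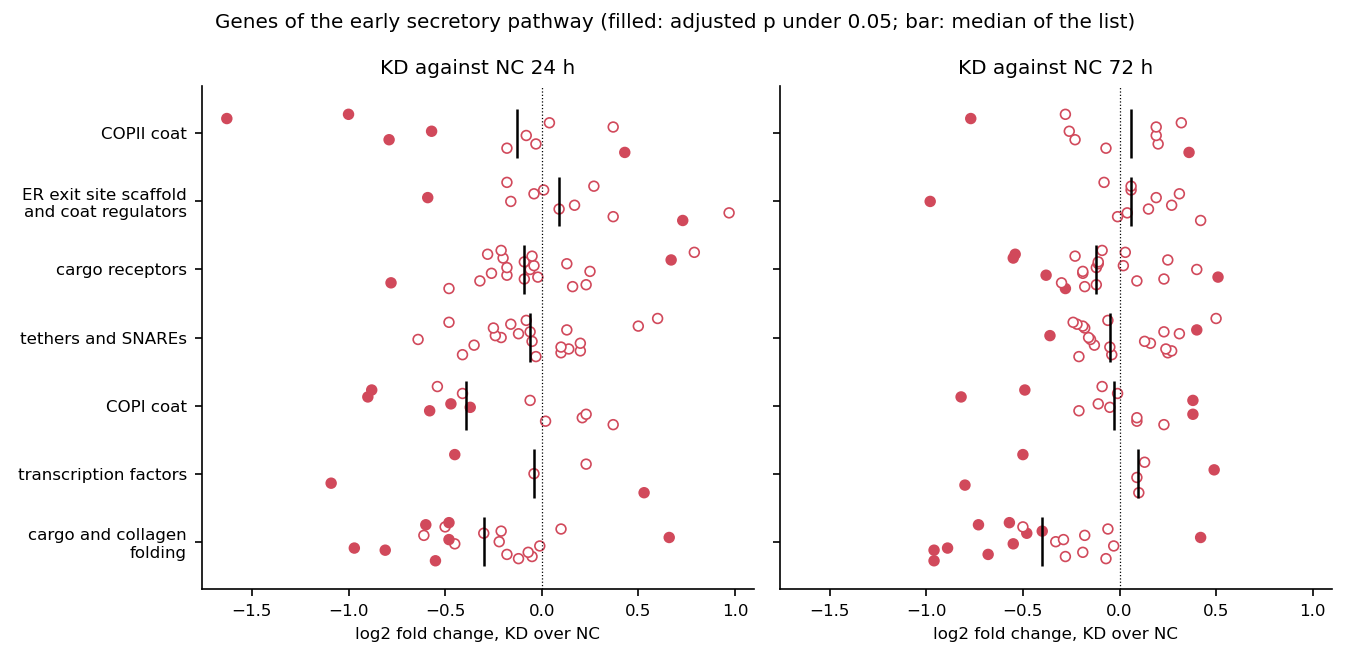
Log2 fold change of KD over NC (horizontal axes) at 24 h (left) and 72 h (right) for each tested gene of 7 lists of the early secretory pathway (vertical axis); filled points passed an adjusted p under 0.05 and the bar is the median of the list. The COPI list has the lowest median at 24 h, -0.39, and the cargo and collagen folding list at 72 h, -0.40.

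Of the transcription factors known to act on COPII genes, 1 of 5 tested rose and 2 fell at 24 h, and 1 of 6 rose and 2 fell at 72 h. Across the whole set tested, rises passed the test in 11.1% at 24 h and 10.3% at 72 h. Falls did so in 11.6% and 12%. Xbp1, which drives secretory genes when ER folding is strained, fell by 0.45 at 24 h (adjusted p 0.027) and 0.50 at 72 h (adjusted p 0.0061). Atf6, a membrane-bound sensor of the same response, fell by 1.09 (adjusted p 0.015) and 0.80 (adjusted p 0.039) at a low level, 2.83 ± 0.44 RPKM in NC 24 h. Atf4 rose by 0.53 at 24 h, adjusted p 0.0036, without overlap, and did not pass at 72 h (0.10, adjusted p 0.44). Creb3l1, a factor known for collagen secretion, rose by 0.49 at 72 h, adjusted p 0.016. Creb3, of the same family, did not pass at 24 h (-0.04, adjusted p 0.86) or 72 h (0.09, adjusted p 0.60).

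Among 19 tested genes of secretory cargo and collagen folding, 6 fell and 1 rose at 24 h, and 9 fell and 1 rose at 72 h, with medians of -0.30 and -0.40. Over all entries 11.6% were called lower and 11.1% higher at 24 h, and 12% and 10.3% at 72 h. Col5a1 fell from 13.0 ± 1.01 to 6.81 ± 1.93 scaled RPKM at 24 h (SD, n = 6 each), a change of -0.97, adjusted p 0.0028, and Col4a2 from 28.1 ± 4.00 to 15.9 ± 2.27, a change of -0.81, adjusted p 0.0013. Serpinh1, the collagen chaperone HSP47, fell by 0.48 (adjusted p 0.0055). Adipoq, the adiponectin gene and an adipocyte marker, fell by 0.55 at 24 h (adjusted p 0.02) and by 0.96 at 72 h (adjusted p 6.6e-04). Lpl did not pass at 24 h (-0.30, adjusted p 0.091), nor Col1a2 at 72 h (-0.28, adjusted p 0.12).

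Markers of cell types moved in the same libraries. For the counts of this paragraph, the shares of all entries called were 11.1% higher and 11.6% lower at 24 h, and 10.3% and 12% at 72 h. Of the 5 brite markers 4 fell at 24 h and 5 at 72 h. Ucp1, the uncoupling protein, was lower by -1.15 (adjusted p 0.0049) and -2.37 (adjusted p 8.2e-06), and Elovl3, Cidea and Cox7a1 were called lower at both times. Their values after 24 h were -1.05, -0.64 and -0.57, and those after 72 h -0.68, -1.70 and -1.47. Ppargc1a was at -0.73 at 24 h (adjusted p 0.057). Of the 6 adipocyte markers, Adipoq and Pparg fell at 24 h, and Adipoq, Fabp4 and Lpl at 72 h, with the most abundant uncalled ones, Fabp4 at 24 h and Cidec at 72 h, at -0.18 and 0.11. Of the preadipocyte and fibroblast markers none of 6 was called by limma at 24 h, with 0 at an unadjusted p under 0.05. At 72 h 2 of 5 rose, Cd34 by 2.02 (adjusted p 0.0015) and Pdgfrb by 0.59 (adjusted p 0.0077), while Ly6a was at -0.15 and 0.27 and not called. The 2 macrophage markers tested moved apart. Csf1r rose by 1.22 at 24 h (adjusted p 0.0061) and 1.23 at 72 h (adjusted p 0.0031), whereas Lyz2 stood at -2.41 after 24 h (adjusted p 0.083, not called) and was called lower after 72 h, at -3.68 (adjusted p 6.6e-04). Of the mesothelial and epithelial markers Krt19 rose by 1.06 (adjusted p 0.0092) and 2.54 (adjusted p 5.7e-07), and Wt1, tested at 72 h, lay the other way at -1.50 (adjusted p 0.079), from 6.02 ± 5.09 in NC (SD, n = 5) to 1.40 ± 0.54 scaled RPKM in KD (SD, n = 6). The 6 endothelial markers were too low to be tested. Whether these shifts in cell markers bear on the COPII changes was not tested.

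Over the 23 samples and 10644 genes tested in all comparisons, the 5 genes outside the members whose log2 values were most like those of Sec24d by Pearson's r were Vamp8 (0.93), Copz2 (0.93), Ank3 (0.93), Tmem45a (0.92) and Ssbp2 (0.92). Vamp8 is a SNARE of endosomes and Copz2 the COPI subunit above. Within groups, after taking out the group means, these values were 0.32, 0.53, 0.58, 0.02 and 0.37. Of the members, Sec31a had 0.92 overall and 0.66 within groups, and Sec23a 0.80 and 0.39, whereas Sec24c had -0.36 and 0.24 and Sar1a -0.32 and -0.20. The samples share their groups and clusters, and the values are descriptions with no p.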

How the data were processed

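RNA of 24 libraries was sequenced by BRB-seq, which barcodes each sample through its oligo-dT primer and reads the 3′ ends of tagmented cDNA. The authors aligned the tags to NCBI reference sequences and ran DESeq2 within the Genomatix software; version, genome build and strand handling for these libraries are not given in the sources used here. The deposited table holds RPKM with decimal commas for 168326 overlapping entries, 88340 from GenBank, 48232 from Ensembl and 31754 from RefSeq; 0 columns were left unused. Reads were recovered from the steps of the RPKM values (95.1% to 95.7% of low values whole per library).

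Trimmed means of log ratios to a common reference scaled the RPKM of each comparison. Entries with 10 reads in as many samples as the smaller group, as in the median library, and 15 reads in total were tested with limma 3.58.1 (R 4.3.3, trend) on log2(RPKM + 0.1), two-sided, Benjamini-Hochberg over all entries, called at an adjusted p under 0.05. The fit was tested on simulated reads of independent libraries, with the same spread for every entry (dispersion 0.08) and without library clusters. Sample groups came from the labels. Replicate numbers did not pair the samples. The closest library pair differed by 0.34 times the counting noise, the next of 276 pairs by 2.00 times. Alternatives covered pseudocounts, filter, scaling, entries, blocks, library clusters, voom and leaving out samples.

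The members, the lists and Sec24d as reference were chosen with earlier results of these data known. Named were all members, from each list up to 4 called genes with the smallest adjusted p and the most abundant uncalled gene per time, and the 5 genes most like Sec24d. Locations come from GENCODE M21 (GRCm38) and promoters from RefSeq (GRCm38.p6).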

Additional observations from a re-analysis of the deposited data

Results flagged for a closer look

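Among 40 sets of values examined, of 10 genes in 4 groups, 2 had a sample far from the others by Dixon's test, and chance flags about 1 in 20. Sec23a stood at 33.6 scaled RPKM in KD 72 h replicate 5, a library of the smaller cluster, where the other 5 libraries of the group ran from 25.1 to 27.5. Sec23b stood at 19.7 in KD 24 h replicate 3, also of the smaller cluster, where the others ran from 13.8 to 14.5.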

How the results depend on the processing

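The falls of Sec24d at 24 h and 72 h and the fall of Sec31a at 24 h kept their direction under every alternative run, and lost the call only within the smaller library cluster (for Sec24d at 72 h and for Sec31a). The cause of the other changes below was not tested.

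Within the smaller cluster, with 2 libraries a group, 1547 entries were called at 24 h, 5743 at 72 h, 1738 over time in NC and 1827 in the interaction, and 1, 0, 0 and 0 members. Within the larger cluster the interaction gave 861 calls, and 2 members were called over time. With 1 entry per gene, and so fewer tests, 2613, 2811, 1072 and 45 were called. The replicate block, for numbers that did not pair the samples (in the pairing check 2, 3 and 3 of 12 samples correlated best with their own number), gave 2898 calls over time, 28 in the interaction, 3 members at 24 h, 1 at 72 h and 0 over time. With it Sec24d kept its calls (adjusted p 0.002 and 0.03), and Sar1a lost its call at 72 h (adjusted p 0.057). The cluster as a block gave 404 interaction calls, 2 members over time and 1 in the interaction. The interaction gave 244 calls with a pseudocount of 1, 199 with 0.5, 774 without scaling (96.1% of them higher, against 63.0% in the scaled fit) and 182 with libraries kept separate, and without scaling 1 member. At 72 h, 5 members were called without scaling, when 13166 of 16268 calls were higher, against 5614 of 12159 with it. Without the filter 3 members were called at 24 h. With the next entry of each gene, or the highest of any kind, 1 was called at 72 h, and with the latter 2 over time. All 4 groups in 1 fit gave 0 over time.

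Leaving out 1 sample gave 3 to 5 members at 24 h, 2 to 3 at 72 h, 1 over time and 0 in the interaction, and 9061 to 14171, 9745 to 12059, 3683 to 4705 and 53 to 175 calls.

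Reversed signs, in members that were not called, were: at 24 h Sec24b -0.21, Sar1b 0.20 and Sec13 0.10 within the smaller cluster, Sec24c -0.00 within the larger, and Sec13 0.03 without scaling and -0.09 to 0.13 with 1 sample left out; at 72 h Sec23a 0.02 and Sar1b 0.18 without scaling; over time Sec24a 0.09 within the larger cluster, 0.01 with libraries kept separate and -0.14 to 0.00 with 1 sample left out; in the interaction Sec24a -0.38, Sec24b 0.31, Sec13 -0.05, Sar1a 0.32 and Sar1b -0.26 within the smaller cluster, Sec24b 0.01 and Sar1a 0.12 without scaling, and, with 1 sample left out, Sec24b -0.29 to 0.06 and Sar1b -0.00 to 0.19. Depth limits Sec24b most, at a median of 86 reads per library.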
